A study of Mus musculus with 28 samples.

Results

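Levels of 8 integrin subunit genes were followed through mouse bone marrow stem and progenitor cells and through leukaemic cells. The members were Itgam, Itgal, Itgb2, Itga4, Itga6, Itgav, Itgb1 and Itgb7, chosen by symbol among probe sets whose platform annotation names exactly 1 gene. They were 8 of 12393 such genes and were read by 18 of the 22690 probe sets. Itgb1 had 6 probe sets, Itga4 and Itgav 3 each, Itga6 2, and the other members 1 each. RNA of small sorted samples was amplified, biotin-labelled and measured on 28 Affymetrix expression arrays.

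The sorted experiment held 22 arrays of bone marrow cells sorted by surface markers. Per the titles, the stem cell enriched sort (HSC, 5 arrays) was negative for lineage markers and positive for Sca and Kit. Common myeloid progenitors (CMP, 4 arrays) were lineage- and Sca-negative, Kit-positive, Fc receptor-positive and CD34low. Granulocyte-macrophage progenitors (GMP, 4 arrays) were labelled alike but CD34high, and megakaryocyte-erythroid progenitors (MEP, 3 arrays) were negative for the Fc receptor and CD34. The L-GMP (6 arrays), read here as leukaemic cells with the marker set of GMP, were lineage- and Sca-negative and positive for Kit, the Fc receptor and CD34. Their titles carry no genotype, and the series title names MLL-AF9, a fusion of the MLL and AF9 proteins found in leukaemia, as what transformed progenitors. In the transduced experiment 3 arrays held GMP with MLL-AF9 and 3 held GMP with GFP, a fluorescent control protein. Strain, age and number of animals are not given in the sources used here, nor whether replicates were separate animals, so that the p-values cover the spread of these samples alone, possibly a technical spread. The 2 experiments were amplified on different days and are called noncomparable by the submitters, so no change was computed between them.

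The labelled sorts were checked against their own marker genes. Fcgr3 averaged 9.51 in GMP and 9.65 in L-GMP on the log2 scale, and was at the floor on all 5 HSC and all 3 MEP arrays. In CMP, labelled Fc receptor-positive, Fcgr3 averaged 5.47 with 2 of 4 arrays at the floor. Cd34 averaged 9.57 in CMP, labelled CD34low, and 8.94 in GMP, labelled CD34high, a difference that did not pass the test (adjusted p = 0.117). Fcgr2b, the other Fc receptor gene read, averaged 8.58 in CMP, 7.45 in HSC and 6.95 in MEP, and 10.17 in GMP and 10.79 in L-GMP. Kit averaged between 8.24 in L-GMP and 9.69 in HSC. Array medians lay between 90.8 and 116 intensity units in the sorted and between 247 and 266.8 in the transduced experiment. All levels below are log2 intensities after scaling within an experiment, with a floor of 5.27 in the sorted and 6.29 in the transduced experiment. A gene was called where limma's moderated test gave an adjusted p under 0.05 over all genes of the experiment. By that rule, of the 4 sort marker genes tested 1 was higher and 2 were lower in L-GMP than in GMP (15.2% and 18.3% of all genes).

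Integrins are receptors of 1 alpha and 1 beta chain that hold cells to matrix and to other cells, and signal in both directions across the membrane. In marrow, alpha4 with beta1 binds VCAM1 and fibronectin and keeps progenitors in their niche, and alpha4 with beta7 binds MADCAM1. The beta2 integrins, alphaL with beta2 (LFA-1) and alphaM with beta2 (Mac-1), bind ICAM proteins and complement and serve leukocyte arrest and phagocytosis. Alpha6 pairs with beta1 to bind laminin, and alphaV pairs with several beta chains to bind vitronectin and other ligands.

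Promoters are shown for the members with a promoter entry whose level set a single population apart. In the sorted experiment, these were Itgam, seen there almost solely in L-GMP, Itgb7, lowest in GMP, and Itgav. Itgav was lowest in MEP by the probe set of highest mean but not by its other kept probe set. The sequences are RefSeq's, build GRCm38.p6, from 250 bases before to 50 after the start of the gene. The Itgam promoter lies at chr7:128062390-128062689 on the plus strand, that of Itgb7 at chr15:102231886-102232185 on the minus strand and that of Itgav at chr2:83724147-83724446 on the plus strand. Capitals mark matches, on either strand, to GAGGAA, a box that PU.1 can bind, TGTGGT, a core that RUNX factors can bind, the GC box GGGCGG and the TATA box TATAAA.
Itgam: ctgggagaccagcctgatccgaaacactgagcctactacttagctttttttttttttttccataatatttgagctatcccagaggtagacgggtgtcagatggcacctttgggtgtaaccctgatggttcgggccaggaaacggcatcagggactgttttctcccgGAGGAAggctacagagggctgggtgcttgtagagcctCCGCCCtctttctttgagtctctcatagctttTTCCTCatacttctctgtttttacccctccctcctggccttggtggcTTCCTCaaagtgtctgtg
Itgb7: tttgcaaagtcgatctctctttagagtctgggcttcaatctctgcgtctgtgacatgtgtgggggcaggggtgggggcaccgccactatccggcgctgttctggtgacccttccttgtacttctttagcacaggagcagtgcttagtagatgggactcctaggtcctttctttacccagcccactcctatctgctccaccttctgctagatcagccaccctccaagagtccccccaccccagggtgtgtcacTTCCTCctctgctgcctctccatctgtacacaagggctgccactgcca
Itgav: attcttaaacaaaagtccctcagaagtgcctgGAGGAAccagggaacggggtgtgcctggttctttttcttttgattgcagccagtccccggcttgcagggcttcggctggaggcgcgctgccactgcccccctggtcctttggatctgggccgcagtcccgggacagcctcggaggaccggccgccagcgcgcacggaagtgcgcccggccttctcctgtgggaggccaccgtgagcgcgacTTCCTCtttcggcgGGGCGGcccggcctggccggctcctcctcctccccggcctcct

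The Itgam promoter held 3 matches to GAGGAA and 1 to GGGCGG. That of Itgb7 held 1 match to GAGGAA, and that of Itgav 2 to GAGGAA and 1 to GGGCGG. No match to TGTGGT or TATAAA was found in these 3 windows. Among 32851 promoter windows of the same length, 28.3% held GAGGAA, 35.7% GGGCGG, 16.8% TGTGGT and 13.6% TATAAA, so that a match to any of these is common. Of the 8 members 5 had an entry in the promoter table, Itga4 and Itgb1 being the other 2. Itgal, Itgb2 and Itga6 had none, although the L-GMP arrays lay above all normal arrays for Itgb2 and Itgal.

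Of the 8 members 7 passed the filter of the sorted experiment, which asked that a probe set exceed the median on at least 3 arrays. Itga4 did not pass. Itgam passed through its L-GMP arrays alone, so its difference in L-GMP follows in part from the filter. It is left out of the counts in this paragraph. Of the other 6 members tested, 3 were higher and 1 was lower in L-GMP than in GMP, where 33.5% of all genes were called (15.2% higher and 18.3% lower). Compared with HSC, 3 were higher and 0 lower, with 47.2% of all genes called (23.4% higher and 23.8% lower). Compared with CMP, 3 were higher and 0 lower, with 39.9% called (18.4% and 21.5%). Compared with MEP, 4 were higher and 0 lower, with 45.2% called (22.3% and 22.9%). The 6 members had a median log2 change of 0.41 relative to GMP, 0.22 relative to HSC, 0.35 relative to CMP and 0.66 relative to MEP, and the median over all genes tested lay between -0.05 and 0.01. L-GMP arrays did not overlap with those of GMP for 5 of the 6 members (25.5% of all genes), of HSC for 3 (31.6%), of CMP for 4 (30.6%) and of MEP for 3 (36.9%). These 4 comparisons share the L-GMP arrays.

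**Figure D1:**
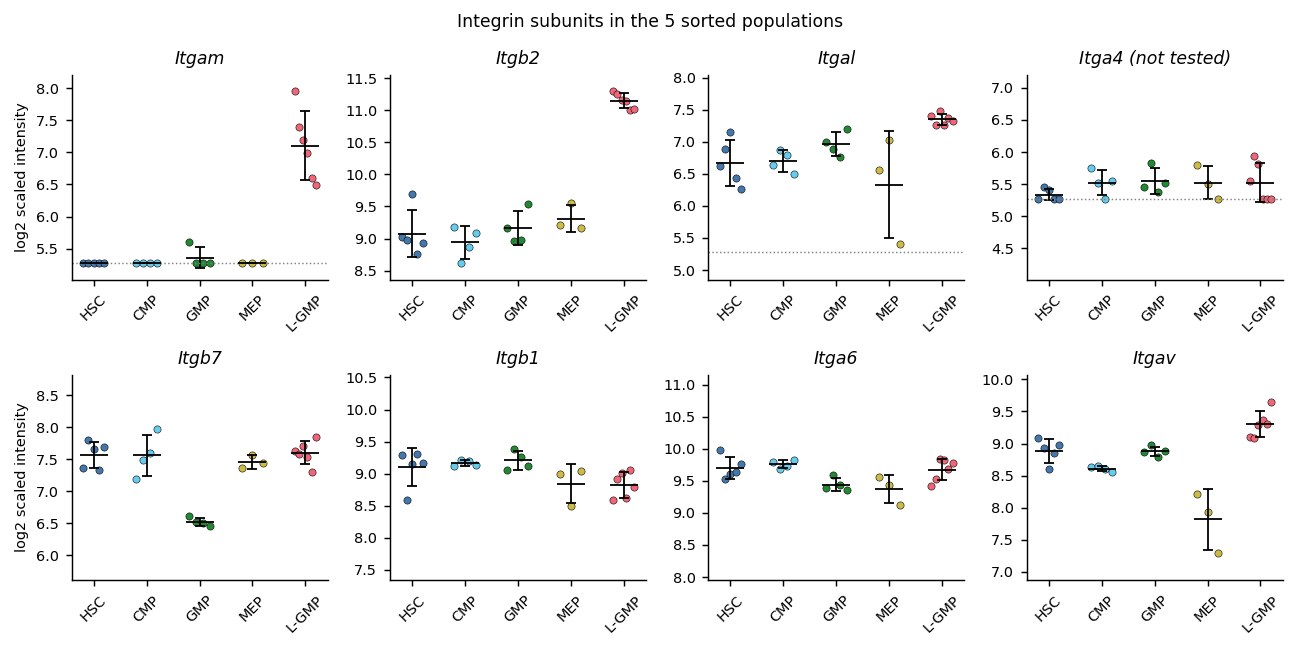
Log2 scaled intensity (vertical axes, each with its own range) of the 8 members in HSC, CMP, GMP, MEP and L-GMP. Points are arrays, black lines the mean ± SD, the dotted line the floor of 5.27; Itgam is above the floor on all L-GMP arrays and 1 GMP array, Itgb2 is highest in L-GMP, Itgb7 is lowest in GMP and Itgav, by its probe set of highest mean, lowest in MEP.

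Itgb2, the beta chain shared by LFA-1 and Mac-1, had a lowest, median and highest level of 11.004, 11.15 and 11.30 on the 6 L-GMP arrays. The GMP arrays read 9.16, 8.96, 8.98 and 9.54. On HSC arrays the lowest, median and highest levels were 8.77, 8.97 and 9.70, on CMP arrays 8.62, 8.98 and 9.19, and on MEP arrays 9.16, 9.21 and 9.55. Every L-GMP array lay above every normal array. Itgb2 rose in L-GMP by 1.99 ± 0.16 (SE) against GMP (3.97-fold, adjusted p = 3.72e-09, 6 against 4 arrays). The change relative to HSC was 2.07 ± 0.15 (adjusted p = 1.66e-10), to CMP 2.21 ± 0.16 (adjusted p = 3.21e-10) and to MEP 1.84 ± 0.17 (adjusted p = 1.47e-08). Among the normal sorts the order of means was MEP (9.31), GMP (9.16), HSC (9.08) and CMP (8.94). None of the 6 differences between normal sorts was called for Itgb2, so that neighbours in this order were not set apart.

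Itgam, the alpha chain of Mac-1 and the CD11b antigen used to stain myeloid cells, was at the floor on all HSC, CMP and MEP arrays and on 3 of 4 GMP arrays. Replicate 1 of GMP read 5.60. The lowest, median and highest of the 6 L-GMP arrays were 6.49, 7.10 and 7.95, all above every normal array but spread over more than 1 log2 unit. In deposited intensity units the L-GMP arrays lay between 93.4 and 268 and the normal arrays between 11.9 and 46.6. Itgam was at least 3.36-fold higher in L-GMP than in GMP, and at least 3.56-fold higher than in HSC, CMP and MEP, whose arrays were all at the floor. No test is given, since the gene passed the filter only through L-GMP. Between the normal sorts no order can be given, since floor values have none.

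Itgal, the alpha chain of LFA-1, differed less. L-GMP arrays lay between 7.25 and 7.48, with a median of 7.35. GMP arrays lay between 6.76 and 7.20 with a median of 6.94, and those of CMP read 6.64, 6.87, 6.79 and 6.49. On HSC arrays the lowest, median and highest were 6.26, 6.62 and 7.16, and the 3 MEP arrays read 6.56, 7.02 and 5.41. L-GMP arrays stood above all normal arrays, and normal sorts overlapped one another. Against MEP the rise was 1.02 ± 0.23 (adjusted p = 0.00116), against HSC 0.68 ± 0.20 (adjusted p = 0.00807) and against CMP 0.65 ± 0.21 (adjusted p = 0.0194, and 0.0622 without replicate 4 of CMP). Against GMP, the sort whose markers L-GMP share, the difference of 0.39 ± 0.21 did not pass (adjusted p = 0.173). With the floor at the 50th percentile the same difference had an adjusted p of 0.00237. Without replicate 2 of MEP, its highest array, Itgal was also called lower in MEP than in GMP (log2 change -0.97, adjusted p = 0.00548) and higher in HSC than in MEP (0.69, adjusted p = 0.031). The order of means was L-GMP (7.35), GMP (6.96), CMP (6.70), HSC (6.67) and MEP (6.33), and no neighbouring pair in it was called.

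Markers of mature myeloid cells were read beside these 3 genes, since such cells carry beta2 integrins. Of 10 monocyte and macrophage markers 8 were tested, and their mean level per array lay between 8.44 and 8.97 in L-GMP, 8.01 and 8.35 in GMP, 7.32 and 7.62 in CMP, 6.56 and 7.25 in HSC, and 6.26 and 6.73 in MEP. C1qb, 1 of the 8, passed the filter through L-GMP, so its share of the L-GMP means follows partly from the filter. Against GMP 2 of the 8 were higher in L-GMP, Adgre1 (log2 change 3.12) and Cd68 (1.39), and 1 was lower, Ccr2 (-0.78). Over all genes 15.2% were higher and 18.3% lower. Cd14 was at the floor on all HSC, CMP and MEP arrays. Of 7 late neutrophil granule markers 5 were tested, with array means between 7.84 and 10.2 in L-GMP and between 6.84 and 10.2 over the normal sorts. Against GMP 2 of the 5 were higher in L-GMP (15.2% of all genes) and 1 was lower (18.3%). Of the higher ones 1, Cd177, passed the filter through L-GMP. Replicate 3 of HSC, whose Itgb2 level of 9.70 was the highest of its group, had a neutrophil marker mean of 10.2, against 8.0 to 8.60 on the other HSC arrays. The part of such cells in the integrin levels was not tested, and in bulk samples fewer cells of a type and less RNA per cell cannot be told apart. Without that array the change of Itgb2 in L-GMP against HSC was 2.23 (adjusted p = 8.87e-12).

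**Figure D2:**
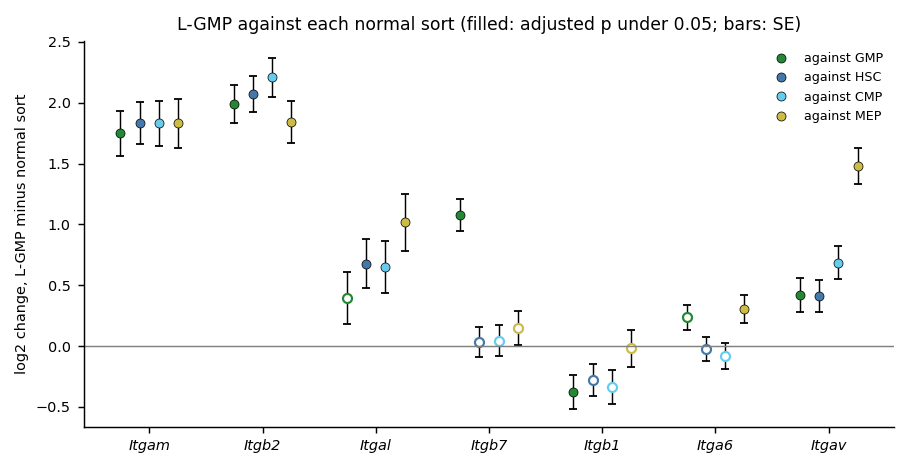
Log2 change (vertical axis, L-GMP minus the normal sort) of the 7 tested members against GMP, HSC, CMP and MEP. Points are fitted changes, bars their SE, filled where the adjusted p was under 0.05. Itgb2 and Itgam stand near 2 in all 4 comparisons, Itgb7 above 1 against GMP alone, and Itgav highest against MEP. Itgam passed the filter through L-GMP alone and is shown as a description. Its filled points and bars are not to be read as a test.

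Itgb7 was lower in GMP than in each other sorted population. It encodes beta7, which pairs with alpha4 or alphaE in gut homing and adhesion of lymphocytes and mast cells. GMP arrays read 6.61, 6.52, 6.51 and 6.46, below every other sorted array. HSC arrays had a lowest, median and highest of 7.33, 7.67 and 7.79, CMP arrays read 7.19, 7.49, 7.59 and 7.97, and MEP arrays 7.36, 7.57 and 7.43. The L-GMP arrays lay between 7.31 and 7.85 with a median of 7.61, within the range of the other 3 normal sorts. Itgb7 was higher than in GMP by 1.08 ± 0.13 in L-GMP (2.11-fold, adjusted p = 1.50e-06), 1.04 ± 0.13 in HSC (adjusted p = 2.41e-06), 1.03 ± 0.14 in CMP (adjusted p = 1.78e-05) and 0.93 ± 0.15 in MEP (adjusted p = 6.70e-05). These 4 comparisons share the GMP arrays. L-GMP did not differ from HSC, CMP or MEP beyond the spread (changes of 0.03, 0.04 and 0.15).

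Itgb1, the common beta chain of the collagen, laminin and fibronectin receptors, varied little. By the probe set that represents it, GMP arrays read 9.06, 9.39, 9.25 and 9.13, and L-GMP arrays 8.58, 8.92, 9.01, 8.62, 9.05 and 8.79. CMP arrays lay between 9.12 and 9.21, MEP arrays read 9.001, 8.49 and 9.05, and HSC arrays lay between 9.15 and 9.31 apart from replicate 2 at 8.59. The L-GMP arrays ended just below the lowest GMP array. Itgb1 fell by 0.38 ± 0.14 in L-GMP against GMP (adjusted p = 0.0399, and 0.0562 without the filter on low values). The call was lost without replicate 2, 3 or 4 of GMP and without replicate 1, 4 or 6 of L-GMP, with adjusted p of up to 0.132. No other comparison of Itgb1 was called with all arrays. Without replicate 2 of HSC it was also lower in L-GMP than in HSC (-0.41, adjusted p = 0.00695) and higher in HSC than in MEP (0.39, adjusted p = 0.0376), and without replicate 3 or 5 of L-GMP it was lower in L-GMP than in CMP (adjusted p = 0.0482 and 0.0416). The order of means was GMP (9.21), CMP (9.16), HSC (9.10), MEP (8.85) and L-GMP (8.83), with no neighbouring pair called. This probe set bears the suffix _x_at, which the manufacturer gives to probe sets that can also bind other transcripts. The other 5 probe sets of Itgb1 did not pass the filter and were not tested, 2 of them being at the floor on all 22 arrays. Of the rest, 1 went the opposite way, averaging 6.34 in L-GMP and 5.94 in GMP. The remaining ones averaged 5.88 and 5.31 in L-GMP, and 6.15 and 5.35 in GMP.

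Itga4, the alpha4 chain, could not be followed in the sorted experiment. Of its 3 probe sets 2 were at the floor on 20 of 22 arrays, and the third averaged 5.34 in HSC and between 5.52 and 5.54 in the other sorts, close to the floor of 5.27. In the transduced experiment 1 of those first 2 probe sets read between 9.26 and 9.74 on all 6 arrays, above that experiment's floor of 6.29. The values of the 2 experiments stand side by side, with no comparison between them. Control probe sets for Actb and Gapdh read the 3' and 5' ends of the transcript, and the ratio of these signals rises as RNA copies get shorter. On the log2 scale it averaged between 2.85 and 3.10 in the sorted groups and 1.51 in GFP and 1.47 in MLL-AF9. The part of RNA length in the missing Itga4 signal was not tested. A level at the floor on an array is no measure of alpha4 on the cell.

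Itga6, the alpha6 chain of laminin receptors and the CD49f antigen, kept within a narrow band. Group means ordered as CMP (9.76), HSC (9.70), L-GMP (9.68), GMP (9.44) and MEP (9.37), with SDs between 0.07 and 0.22. MEP arrays read 9.55, 9.43 and 9.12, CMP arrays lay between 9.68 and 9.83, and the L-GMP arrays between 9.42 and 9.83 with a median of 9.72. The 3 calls all involved MEP. Itga6 was higher in L-GMP by 0.31 ± 0.12 (adjusted p = 0.0348) and in HSC by 0.33 ± 0.12 (adjusted p = 0.0356), and lower in MEP than in CMP by 0.39 ± 0.12 (adjusted p = 0.0348). Each call was lost with some single array left out. For L-GMP these were replicates 2 and 3 of MEP and 3, 4 and 6 of L-GMP, for HSC replicates 1 and 5 of HSC and 2 and 3 of MEP, and for CMP replicates 1, 3 and 4 of CMP and 2 and 3 of MEP, with adjusted p of up to 0.272. Without replicate 2 of HSC or replicate 2 of GMP Itga6 was called higher in HSC than in GMP, and without replicate 1 of L-GMP higher in L-GMP than in GMP. All 3 calls with MEP were also lost with the mean over both probe sets or with quantile normalization. No neighbouring pair of the order was called.

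Itgav, the alphaV chain of vitronectin receptors, was lowest in MEP by the probe set of highest mean, which represents it here. MEP arrays read 8.21, 7.94 and 7.30. GMP arrays read 8.87, 8.97, 8.80 and 8.88, CMP arrays 8.63, 8.66, 8.60 and 8.55, HSC arrays lay between 8.60 and 9.09 with a median of 8.93, and L-GMP arrays between 9.09 and 9.64 with a median of 9.30. MEP arrays did not overlap with any other group. Itgav was lower in MEP than in GMP by 1.06 ± 0.16 (log2, adjusted p = 2.90e-05) and than in CMP by 0.79 ± 0.16 (adjusted p = 0.0013), and higher in HSC than in MEP by 1.07 ± 0.16 (adjusted p = 1.56e-05). In L-GMP it rose by 1.48 ± 0.15 against MEP (adjusted p = 5.17e-08), 0.69 ± 0.14 against CMP (adjusted p = 0.000389) and 0.41 ± 0.13 against HSC (adjusted p = 0.0120). Against GMP the rise was 0.42 ± 0.14 (adjusted p = 0.0234), which was not called without replicate 3 of GMP (adjusted p = 0.067) or replicate 6 of L-GMP (adjusted p = 0.0539). The order of means was L-GMP (9.30), HSC (8.89), GMP (8.88), CMP (8.61) and MEP (7.82), in which HSC and GMP, and GMP and CMP, were not set apart.

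Another Itgav probe set gave a different order. By the other kept probe set, whose suffix _a_at marks several transcripts of the same gene, MEP had the highest mean (7.95 ± 0.31 SD, 3 arrays) and L-GMP 6.98 ± 0.27 (SD, 6 arrays). The MEP arrays read 7.59, 8.09 and 8.17, and all 6 L-GMP arrays lay between 6.56 and 7.29, with no overlap. In the fit over every probe set it was lower in L-GMP than in MEP by 0.96 ± 0.34 (adjusted p = 0.0263) and than in HSC by 0.78 ± 0.29 (adjusted p = 0.0327), opposite to the first probe set. CMP spread from 5.69 to 8.29 on this probe set. The third probe set of Itgav was at the floor on all 22 arrays. With the mean of the kept probe sets in place of the highest, Itgav was called in 1 of 10 comparisons instead of 7, and that call, HSC against CMP (0.53, adjusted p = 0.0396), was none of the 7. Which probe set follows the main Itgav transcript was not tested.

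**Figure D3:**
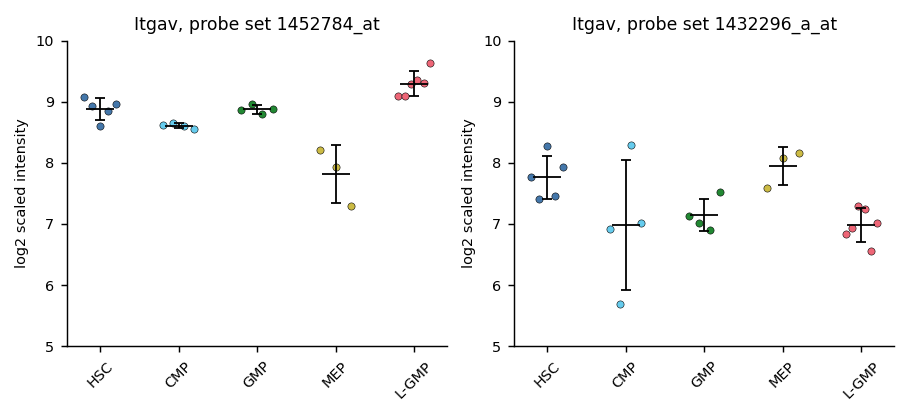
Log2 scaled intensity (vertical axes from 5 to 10) of the 2 kept Itgav probe sets in the 5 sorted populations. Points are arrays and black lines the mean ± SD; The left panel is the probe set of highest mean, where MEP is the lowest group, and the right panel the other, where MEP is the highest group, while L-GMP changes from highest to near the bottom.

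Between normal sorts Itgb7, Itgav and Itga6 were the members called. The 7 tested include Itgam, which was at the floor on all normal arrays but 1 of GMP and so could hardly be called. Of these 7, 1 was called in HSC against GMP (41.2% of all genes called) and 1 in CMP against GMP (16.8%), both times Itgb7. Itgb7 and Itgav were called in MEP against GMP (27.5%), Itga6 and Itgav in HSC against MEP (32.9%) and in MEP against CMP (17%). In HSC against CMP limma called 0 of 7 at the adjusted threshold, 0 had an unadjusted p under 0.05, and 13.4% of all genes were called. Of the 2 calls in MEP against GMP 1 was higher and 1 lower, where 11.9% of all genes were higher and 15.6% lower. Arrays did not overlap for 1 of 7 members in HSC against GMP (36.1% of all genes), 3 in CMP against GMP (23.7%), 3 in MEP against GMP (32.5%), 1 in HSC against MEP (32.1%), 3 in MEP against CMP (25.3%) and 0 in HSC against CMP (17.4%).

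In the transduced experiment 6 of the 8 members passed the filter, Itgam and Itgal exceeding the median on too few arrays. Itgb7 showed the largest difference. GFP arrays read 11.81, 9.88 and 9.87 and MLL-AF9 arrays 9.59, 8.38 and 8.51, in replicate order. Every GFP array lay above every MLL-AF9 array, as did 17.5% of all genes tested in one direction or the other. The log2 change was -1.69 ± 0.58 SE (adjusted p = 0.460, 3 against 3 arrays). Arrays with the same replicate number deviated together in this experiment (correlation between 0.379 and 0.596), though arrays with different numbers reached 0.474. With the replicate number as a block Itgb7 was called lower, with the same change and an adjusted p of 0.0147. That call takes equal numbers as pairs, which they are not shown to be. Without pair 2 the blocked change was -1.79 with an adjusted p of 0.111, without pair 1 -1.43 (adjusted p = 0.00825) and without pair 3 -1.86 (adjusted p = 0.00107).

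Itgb2 read 12.31, 11.66 and 11.78 on the GFP arrays and 11.68, 11.19 and 11.33 on the MLL-AF9 arrays. MLL-AF9 was lower within each replicate number while the groups overlapped slightly, and the change of -0.51 ± 0.21 did not pass (adjusted p = 0.483). Itgam, not tested, read 8.43, 7.26 and 7.35 with GFP, and 6.29, 6.29 and 6.88 with MLL-AF9, of which replicate 2 was at the floor. Itgal, also not tested, read 7.95, 7.68 and 7.89 with GFP and 7.49, 7.42 and 7.62 with MLL-AF9. For both genes the groups did not overlap, as held for 17.5% of all genes tested. In a limma fit without the filter their adjusted p was at least 0.615.

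By the probe sets that represent them, the remaining members differed little. The changes were -0.04 ± 0.15 for Itga4, 0.02 ± 0.24 for Itga6, 0.17 ± 0.16 for Itgav and -0.05 ± 0.11 for Itgb1, with adjusted p between 0.747 and 0.985. The Itgav probe set with suffix _a_at did not pass the filter here and was not tested. It read between 7.19 and 7.50 with GFP and between 7.76 and 8.04 with MLL-AF9, without overlap (17.5% of all genes tested). Limma called 0 of the 6 tested members, 2 had an unadjusted p under 0.05 (Itgb2 and Itgb7), and 0.0276% of all genes were called. In the blocked fit 1 of 6 was called, as lower, and 1.74% of all genes were called, 1.53% as lower. Monocyte and macrophage markers, 8 of 10 tested, had array means between 10.7 and 11.4 with GFP and between 9.64 and 10.4 with MLL-AF9. Late neutrophil granule markers, 4 of 7 tested, lay between 9.86 and 12.3 with GFP and between 8.63 and 10.7 with MLL-AF9. In the blocked fit 5 of the 8 and 2 of the 4 were called. Replicate 1 of GFP, highest for Itgb7, Itgb2 and Itgam, was also highest for both marker lists, and their part in the integrin values was not tested.

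**Figure D4:**
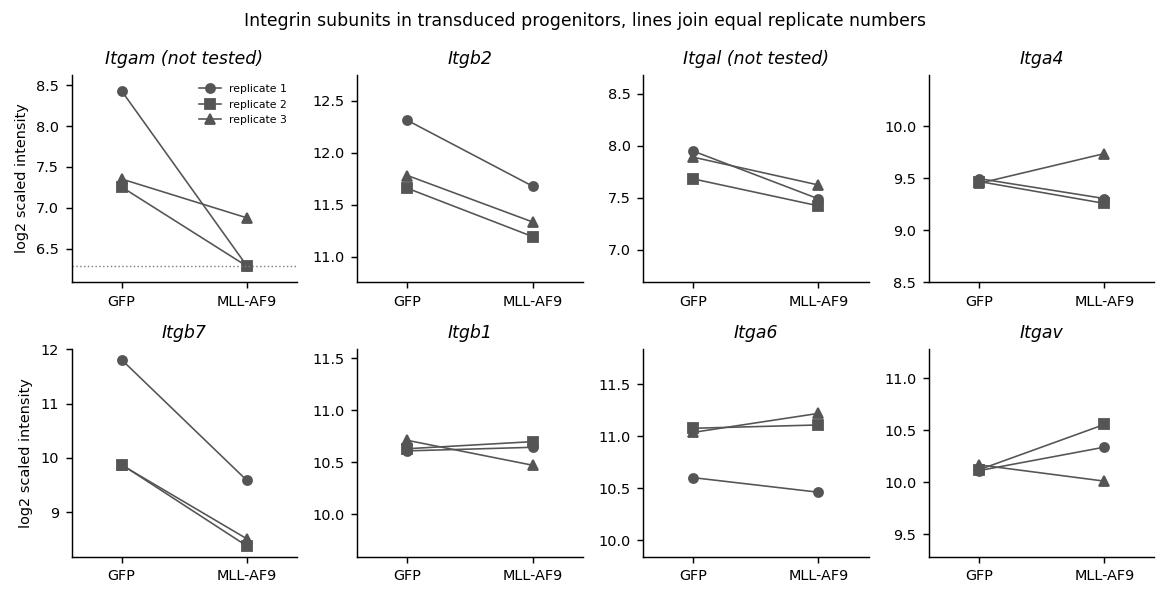
Log2 scaled intensity (vertical axes, each with its own range) of the 8 members on the 3 GFP and 3 MLL-AF9 arrays, with lines joining equal replicate numbers and the floor of 6.29 dotted. Itgb7, Itgb2, Itgam and Itgal are lower with MLL-AF9 at each of the 3 replicate numbers, and the other 4 members go both ways by the probe sets shown.

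The other integrin subunits give the setting. Of a list of 18, 13 had a probe set and 5 were tested in the sorted experiment. Itgb5, which pairs with alphaV, rose by 1.58 ± 0.12 in L-GMP against GMP (adjusted p = 2.70e-09), and Itgae, the partner of beta7, by 0.76 ± 0.13 (adjusted p = 8.94e-05). That made 2 of 5 higher and 0 lower, where 15.2% of all genes were higher and 18.3% lower. The 5 had a median of 0.18 against 0.01 for all genes. Itgb5 was also higher in HSC than in GMP (0.99), the sole call of 5 there, where 41.2% of all genes were called. In MEP against GMP 2 of 5 were higher and 2 lower, where 11.9% of all genes were higher and 15.6% lower. Itga2b, the platelet alphaIIb chain, was higher by 1.44 ± 0.24, and Itgae and Itgb5 were lower by 1.02 and 0.44 on the log2 scale. In MLL-AF9 against GFP 0 of 4 tested were called (0.0276% of all genes), also in the blocked fit (1.74%).

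Proteins that switch integrins on or tie them to actin were read next. Of 33 listed activators and adaptors 25 were tested, and 15 were higher and 1 was lower in L-GMP than in GMP (median 0.37), where 15.2% of all genes were higher and 18.3% lower. Against HSC 12 were higher and 5 lower (47.2% of all genes called), against CMP 11 and 1 (39.9%) and against MEP 14 and 1 (45.2%). Bcar1, the scaffold p130Cas, rose by 1.38 ± 0.10 (adjusted p = 9.25e-10) and Fyb, an adaptor of leukocyte integrin activation, by 1.02 ± 0.15. Actn1, the actin linker alpha-actinin 1, was the single gene lower (-1.05 ± 0.37, adjusted p = 0.0318). In HSC against GMP 6 of 25 were higher and 2 lower (41.2% of all genes called), among the higher Zyx, a focal adhesion protein (1.43), Fyb (1.21) and Ptk2b, a focal adhesion kinase relative (0.92). In MEP against GMP 3 were higher and 6 lower (27.5% of all genes called). Rasgrp2, the exchange factor that activates RAP1 upstream of integrins, was lower by 1.96 ± 0.15 and Actn1 by 1.75, and Fyb was higher by 1.23. In MLL-AF9 against GFP 0 of 24 were called (0.0276% of all genes). In the blocked fit, which called 1.74% of all genes, Fyb fell (-1.73, adjusted p = 0.0318).

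**Figure D5:**
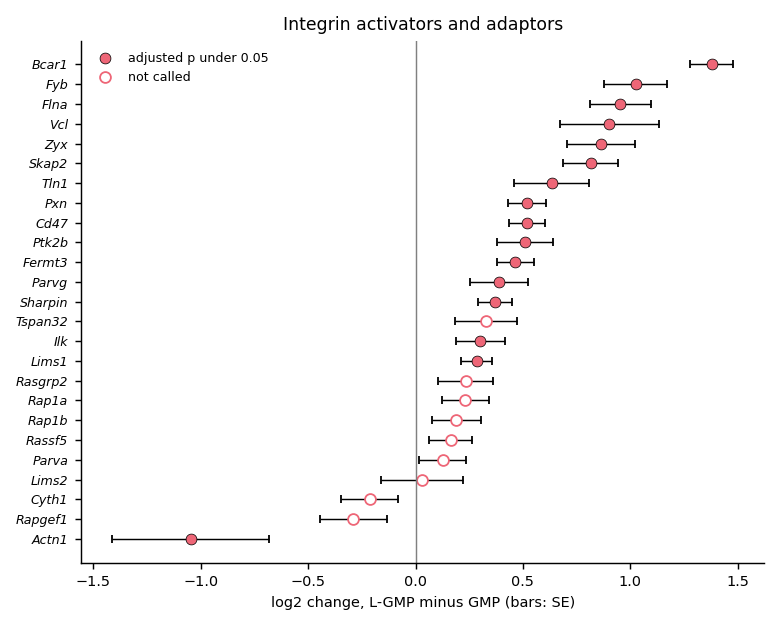
Log2 change (horizontal axis, L-GMP minus GMP) of the 25 tested activators and adaptors. Points are fitted changes, bars their SE, filled where the adjusted p was under 0.05; 15 filled points lie to the right of 0 and 1, Actn1, to the left.

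Ligands of integrins can also be made by the cells that carry the receptors. Of 22 listed 13 were tested, and 2 were higher and 2 lower in L-GMP than in GMP, where 33.5% of all genes were called. The count of 2 higher includes Lamb1, a laminin chain that passed the filter through L-GMP alone (mean 7.10, against 5.66 in GMP) and is given as a description. Mfge8, a bridging ligand of alphaV integrins, fell by 1.02 on the log2 scale, and Icam4, an erythroid ligand, lay at the floor throughout L-GMP and was at least 3.16-fold lower. In HSC against GMP Icam1, a ligand of the beta2 integrins, was higher by 1.47 ± 0.44 and Mfge8 by 1.32, and Tgfb1, whose latent form alphaV integrins bind, was lower by 0.83 on the log2 scale. Both directions held 2 of 13, and 41.2% of all genes were called. In MEP against GMP Icam4 was the sole call of 13 (2.96 ± 0.24), where 27.5% of all genes were called. In MLL-AF9 against GFP 0 of 11 were called (0.0276% of all genes).

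The genes whose levels were most like those of each member were ranked by Pearson correlation over the 22 sorted arrays, which share scaling and sort structure, so the values are a description. For Itgam they were Cd300lf (0.99), Pilra (0.99) and Ryr1 (0.97), each averaging at or near the floor in the 4 normal sorts. Like Itgam, these 3 genes passed the filter through L-GMP alone, so their correlations follow in part from the filter and the floor. For Itgb2 the closest genes were Aldh3b1, Syne1 and Sgip1 (all 0.97), of which Aldh3b1 and Sgip1 also averaged near the floor in the normal sorts. For Itgal they were Pcyt1a (0.87), Dennd11 (0.86) and Ceacam1 (0.86). Itgav was closest to Pik3c2a (0.96), Ifnar2 (0.95) and Cd79b (0.95), which had their lowest means in MEP. Itgb7 was closest to Camk1d (0.88), Tmem40 (0.86) and Srgap3 (0.83), which had their lowest means in GMP. For Itga6 (Ccng2 0.86, Cngb1 0.84, Ubr3 0.80) and Itgb1 (Psph, Dpm1 and Eif1a, all 0.72) the best matches were looser.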

How the data were processed

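The authors deposited an intensity for each probe set, not log-transformed. The submitters' processing notes name MAS5, whose version and scaling target are not given in the sources used here. Some values are below 0. The array medians differed between the experiments, so each was handled alone. Arrays were scaled to a common mean after trimming 2% at each end (factors 0.923 to 1.12), values under the 25th percentile were set to that floor (38.7 in the sorted, 78.0 in the transduced experiment), and log2 was taken. Such scaling removes changes in total RNA per cell. Probe sets naming 1 gene (20380, after 64 controls were left out; 691 name several genes and 1555 none) were kept when above the experiment's median on at least 3 arrays, and the one with the highest mean stood for its gene. This left 8422 genes in the sorted and 7235 in the transduced experiment. A fold against a group with most arrays at the floor is a lower bound.

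Groups and replicate numbers came from the sample titles. Limma 3.58.1 in R 4.3.3 (lmFit, eBayes, two-sided) fitted the 22 sorted arrays together with 10 contrasts and the 6 transduced arrays alone, with Benjamini-Hochberg adjustment over all genes tested. The fit was tested on simulated data. Same-numbered arrays were correlated after removal of group means in 3 of 3 transduced pairs (r between 0.379 and 0.596, taken across genes that are not independent). Differently numbered arrays had a median r of -0.373 but reached 0.474, so the numbers are not shown to be pairs. The transduced fit is given also with the replicate number as a block. In the sorted experiment 18 of 37 pairs passed 0.1, and the numbers were not taken as pairs. Alternatives were quantile normalization, other floors, no filter, the mean over probe sets, every probe set, a 3'/5' covariate, the replicate block and leaving out each array. The rule for named genes covered the 8 members, up to 3 called genes per pathway list and comparison by size of change, and the 3 genes most like each member. The members and lists were chosen with earlier results of these data known. Between 3 and 6 arrays per group limit the precision.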

Additional observations from a re-analysis of the deposited data

Results flagged for a closer look

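Of 34 groups of 4 to 6 arrays examined over the kept probe sets of the members, 3 held an array that stood far from the others of its group. Itgam read 5.602 on replicate 1 of GMP while the other 3 GMP arrays shared the floor value of 5.273, so that any array above the floor stands apart there by construction. For the other two, chance flags about 1 in 20 groups. Itgb2 read 9.70 on replicate 3 of HSC against 8.765 to 9.025 on the other 4. Itgb1 read 8.586 on replicate 2 of HSC against 9.154 to 9.314 on the other 4.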

How the results depend on the processing

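Across settings other than leaving out an array, 661 values of single members kept their side of the threshold, 24 lost a call, 9 gained one and 2 reversed. Itgam, which passed the filter through L-GMP alone and is given no test, is among these values. It also makes up 1 of each count of called members below that compares L-GMP with a normal sort. The reversals were Itgav against HSC in L-GMP (-0.19) and Itgav in MEP against CMP (0.089), both with the mean over kept probe sets. That setting also gave 3 called members in L-GMP against MEP, 1 in HSC against CMP, 0 in HSC against MEP, 1 in MEP against GMP and 0 in MEP against CMP. Quantile normalization called 1 in HSC against MEP (2834 of 8423 genes) and 1 in MEP against CMP (1449). The 3'/5' covariate called 2 in HSC against GMP (3289 of 8422 genes), 2 in CMP against GMP (1399) and 1 in MEP against CMP (1325). The replicate block called 3 in L-GMP against GMP (2660 of 8422 genes), where Itgav (adjusted p = 0.074) and Itgb1 (0.0564) lost their calls. It called 1 in HSC against MEP (2768) and 1 in MEP against CMP (1531). Itga6 lost its call there (0.0905 and 0.0725), as it did in L-GMP against MEP (0.128). In MLL-AF9 against GFP the block called 1 (126 of 7235 genes). Without pair 1 it called 1 there, without pair 2 0 and without pair 3 1, settings chosen after seeing the data. Leaving out the arrays numbered 1 of HSC, CMP and GMP together was also chosen then. It called 1 in HSC against MEP (2673 of 8422 genes) and 1 in MEP against CMP (1227). It called 4 in L-GMP against GMP (2618 genes), where Itgav was lost (adjusted p = 0.0566). In L-GMP against CMP it called 3 (3011 genes), where Itgal was lost (0.0601). The cause was not tested.

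With single arrays left out, the called members, Itgam included, ranged from 3 to 5 in L-GMP against GMP, 4 to 5 against HSC, 3 to 5 against CMP and 4 to 5 against MEP. Itgam, which passed the filter through L-GMP alone, is given no test but makes up 1 of each of these counts. Over the 8422 genes tested the calls ranged from 2319 to 2745, 3675 to 3911, 2977 to 3325 and 3392 to 3783 in these comparisons. The members called were 1 to 2 in HSC against GMP (3005 to 3566 genes), 1 to 3 in HSC against MEP (1988 to 2719), 2 to 3 in MEP against GMP (1859 to 2166) and 1 to 2 in MEP against CMP (1006 to 1413). They stayed at 1 in CMP against GMP (1076 to 1355) and at 0 in HSC against CMP (688 to 1225) and in MLL-AF9 against GFP. Over all genes, MLL-AF9 against GFP had 2 calls, 126 with the replicate block (111, 5 and 275 without pairs 1, 2 and 3), 1 with the covariate, with each probe set fitted by itself and with no filter, and 0 to 1 with an array left out. HSC against CMP had 1132 calls and 688 without replicate 4 of CMP. With the floor at the 10th percentile Itgam was called also in HSC against MEP (0.85) and MEP against GMP (-0.96), among values near background.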
